A study of Saccharomyces cerevisiae with 79 samples.

Results

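USV1 (YPL230W), RRT8 (YOL048C), MRK1 (YDL079C) and PAL2 (YHR097C) are 4 Saccharomyces cerevisiae genes that took a larger share of the labelled reads on intron targets in the splicing mutant prp2-1 than in wild type. They were chosen by their labelled total reads in prp2-1 and WT, so values in that contrast are given for them as a description without a test. Each has 1 intron target, and they are 4 of the 297 genes measured through 308 targets. All 4 passed the minimum of a mean of 20 reads.

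In this study 4-thiouracil, a uracil analogue built into new transcripts, was given to growing cultures in synthetic medium, and labelled RNA was pulled down at successive times. Multiplexed primer extension sequencing (MPE-seq) then read cDNA from primers placed beside chosen introns, which tells unspliced from spliced RNA. The libraries of strain prp2-1, which carries an allele of the spliceosomal ATPase gene PRP2, are used as 1 course of 9 labelled libraries (113 to 1317 s) with 2 libraries at 0 s. WT_30 is strain BY4741 in 2 courses (90 to 3600 s) and WT is BY4741 in 3 courses (90 to 993 s), each course with a 0 s library. The labels name neither the growth temperature, nor the parent strain of prp2-1, nor what the 30 in WT_30 stands for. Spike-in RNA from Schizosaccharomyces pombe was transcribed in vitro for prp2-1 and WT and was total labelled RNA for WT_30. Levels per spike-in read are therefore compared between prp2-1 and WT only. Another 18 prp2-1 columns could not be tied to 1 library each and are described apart.

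Budding yeast answers many kinds of stress with a shared programme, in which many genes for protection and energy storage are switched on while ribosomal protein genes are turned down. Much of the switching on runs through the zinc-finger factors Msn2 and Msn4, which bind the stress response element AGGGG. Prp2 itself is a DEAH-box ATPase that remodels the assembled spliceosome just before the first chemical step of splicing.

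The genes have different roles. USV1 encodes a zinc-finger transcription factor with a part in growth on non-fermentable carbon sources and in the response to salt stress. MRK1 encodes a protein kinase of the glycogen synthase kinase 3 family and is a paralog of RIM11. RRT8 encodes a lipid droplet protein with a part in spore wall assembly. PAL2 encodes a paralog of Pal1, a protein found at sites of endocytosis.

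The introns of RRT8, MRK1 and PAL2 are annotated within the coding sequence, all on the minus strand, and are shown because their splice signals differ. Coordinates and sequence are those of the R64 assembly at RefSeq. The RRT8 intron is 78 bases long at chrXV:240948-241025. That of MRK1 spans 292 bases at chrIV:314045-314336, and that of PAL2 spans 124 bases at chrVIII:298361-298484. Capitals mark the first 6 bases, the best match to the branch sequence TACTAAC and the last 3 bases.
RRT8: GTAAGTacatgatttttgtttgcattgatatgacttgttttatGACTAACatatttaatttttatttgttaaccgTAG
MRK1: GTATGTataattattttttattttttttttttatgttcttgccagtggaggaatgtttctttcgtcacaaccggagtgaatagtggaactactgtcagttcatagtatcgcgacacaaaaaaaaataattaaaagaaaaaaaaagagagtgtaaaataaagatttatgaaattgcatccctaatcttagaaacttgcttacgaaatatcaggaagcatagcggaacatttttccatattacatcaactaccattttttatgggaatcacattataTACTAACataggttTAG
PAL2: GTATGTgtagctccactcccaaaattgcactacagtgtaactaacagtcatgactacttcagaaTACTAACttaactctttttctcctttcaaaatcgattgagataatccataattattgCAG

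MRK1 and PAL2 carry the common yeast signals GTATGT and TACTAAC. RRT8 differs from each by 1 base, with GTAAGT at the start and GACTAAC as its best branch match. Among 279 introns annotated within coding sequences of the targeted genes, 73.1% begin with GTATGT and 82.4% hold TACTAAC. The branch adenosine lies 11 bases from the end of the MRK1 intron, 29 from that of RRT8 and 54 from that of PAL2. For USV1, at chrXVI:115312-116487 on the plus strand, the annotation lists no intron within the coding sequence. Introns outside it were not searched for, so no sequence is shown for its target.

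Every one of the 4 genes had the stress element within 500 bases upstream of its start codon. The motif itself was not used to pick them, but a link to stress was, so the matches are not independent of the choice. AGGGG was searched on both strands, where it reads CCCCT on the opposite strand, and no other motif was sought. There were 4 matches before USV1, 3 before RRT8, 2 before MRK1 and 1 before PAL2. Of 6006 coding genes 34.1% had a match in such a window, and 30.8% of 292 targeted genes did. Among these 292, USV1 and RRT8 were the 2 genes with 3 matches or more, a number chosen after the counts were seen. A match is a stretch of letters and says nothing of whether a factor binds there. The matches are shown in capitals on the strand of each gene, with their distance from the start codon.
USV1 at 496 bases, chrXVI:114812-114830: gccaCCCCTtgatcgcctc
USV1 at 340 bases, chrXVI:114962-114986: ccgttgagtcCCCCTaagggcctta
USV1 at 320 bases, chrXVI:114982-115006: ccttatttatCCCCTctattttttt
USV1 at 257 bases, chrXVI:115045-115069: tcacggcttcCCCCTtaaccgttca
RRT8 at 389 bases, chrXV:241685-241709: gtacctccttCCCCTcctgcggaac
RRT8 at 156 bases, chrXV:241452-241476: ttgggaaatcAGGGGacttatgaaa
RRT8 at 30 bases, chrXV:241326-241350: tccctgaggaCCCCTggttggctgt
MRK1 at 270 bases, chrIV:315004-315028: acaaaggccgCCCCTgggagcaaag
MRK1 at 234 bases, chrIV:314968-314992: ggaactaaccAGGGGcagcattatc
PAL2 at 321 bases, chrVIII:298916-298940: gcgttgatcaAGGGGaatacaggag

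Labelled libraries held 388817 to 4440617 reads in prp2-1, 4155116 to 11674413 in WT_30 and 935805 to 8130197 in WT. The prp2-1 libraries at 0 s were shallow, with 48248 and 77751 reads. Ribosomal protein targets took 59.6% of target reads in the prp2-1 course, against 83.6% ± 0.35 in WT (SD, n = 3 courses). How much of a gene's larger share in prp2-1 goes with this was not tested, beyond the values outside ribosomal protein genes given below. Levels below are a gene's reads per 100000 reads on all targets, and each course is summed over its 7 times from 150 to 990 s unless stated. The primers are the same in every library, but levels of different genes also depend on each primer.

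The transcription factor gene USV1 stood first of 292 targets in the ratio of prp2-1 to WT. It had 720.6 reads per 100000 in the prp2-1 course, against 11.7, 8.52 and 8.01 in the WT courses. That is a 77.7-fold ratio, or 6.28 ± 0.29 on the log2 scale (SD over the 3 WT courses). Among all 308 targets ranked by reads, USV1 was 44th in prp2-1 and 240th to 247th in WT. It was thus among the well read targets in prp2-1 and among the rarely read ones in WT.

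RRT8, the lipid droplet gene, stood next, with 128 reads per 100000 in prp2-1 against 7.26, 6.15 and 6.80 in WT, a 19.0-fold ratio. MRK1, the kinase gene, was at rank 4 with a 17.1-fold ratio, with 6.76 in prp2-1 against 0.341, 0.293 and 0.611 in WT. Its counts were small, with 864 reads in the prp2-1 course and 101 to 216 in the WT courses. PAL2 was at rank 17 with a 7.65-fold ratio, with 140 in prp2-1 against 20.3, 18.1 and 16.8 in WT. In none of the 4 genes did the prp2-1 course overlap the WT courses.

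The median target had a log2 ratio of 0.64 on this scale, and 183 of 292 targets (62.7%) lay in prp2-1 above all 3 WT courses. Outside the ribosomal protein genes this was so for 171 of 188 (91%), so a lack of overlap alone does not set the 4 genes apart. The target just below PAL2 in the order, AMA1 (log2 2.88), encodes an activator of the meiotic anaphase-promoting complex. No target stood above USV1, and 13 others lay between USV1 and PAL2, among them OM14 (4.01), a mitochondrial outer membrane protein gene, and HAC1 (3.69), the unfolded protein response factor.

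**Figure D1:**
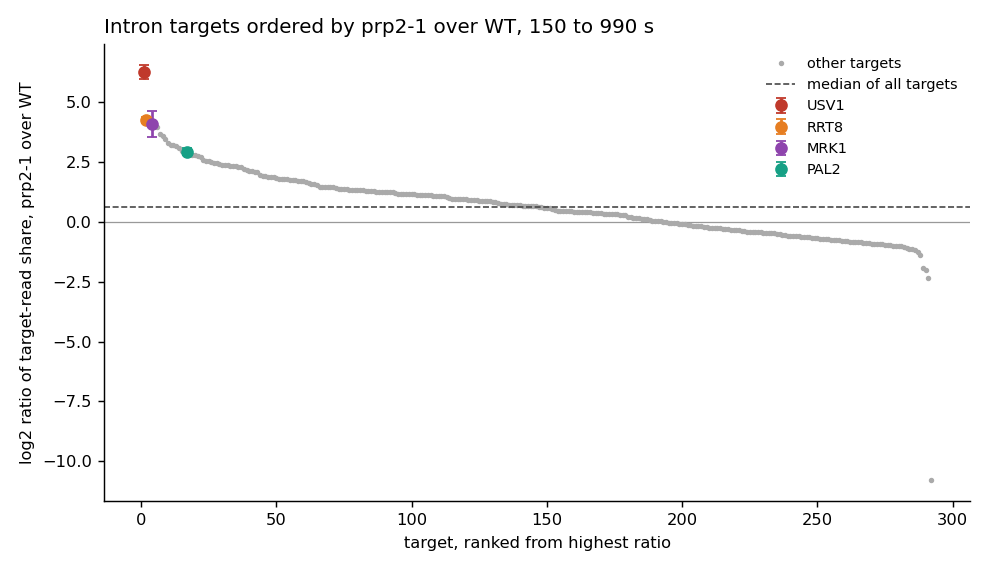
The 292 targets are ranked along the x axis by the log2 ratio of their share of target reads, prp2-1 over WT (y axis), with the 4 genes coloured, error bars of 1 SD over the WT courses and a dashed line at the median of 0.64. USV1 lies apart at 6.28, while RRT8, MRK1 and PAL2 lie at the left end of a continuous slope.

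Over the prp2-1 course USV1 began at a share of 234 at 113 s. Shares of 327, 349, 501, 706 and 1022 followed at 150, 206, 294, 390 and 538 s. The later values were 749, 801 and 466 at 717, 990 and 1317 s. The share thus climbed about to the middle of the course and was lower at its end, in the only course that could be followed. In the 27 labelled WT libraries USV1 ran from 4.97 to 15.8 with a median of 8.13. At each of the 7 matched times it was 37.8 to 118 times the WT mean and above all WT courses.

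RRT8 was flatter in prp2-1, from 92.4 to 152 with a median of 107, against 2.92 to 10.7 with a median of 6.74 in WT. PAL2 ran from 57.7 at 113 s to 167 at 990 s in prp2-1, with a median of 130, against 7.18 to 37.0 with a median of 17.5 in WT. MRK1 ran from 1.75 at 150 s to 11.5 at 717 s in prp2-1 with a median of 4.81, against 0.00 to 1.29 with a median of 0.354 in WT. All 3 lay above every WT course at all 7 matched times, at 13.9 to 22.3 times the WT mean for RRT8, 3.76 to 10.4 for PAL2 and 5.04 to 23.0 for MRK1. No such count by time over all targets is given here, and in the sums 62.7% of targets lay above all WT courses.

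**Figure D2:**
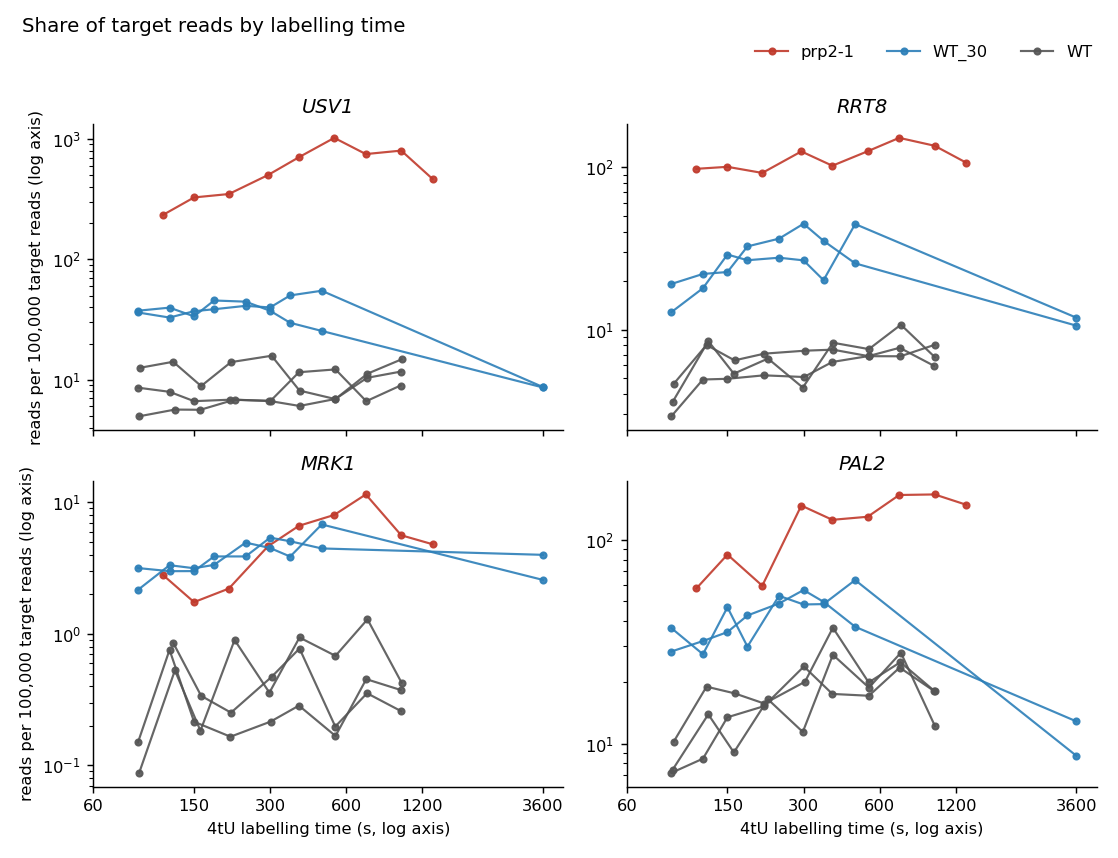
Reads per 100000 target reads (y, log axis) are plotted against labelling time in seconds (x, log axis) for each gene, with 1 line per course of prp2-1, WT_30 and WT. The prp2-1 line for USV1 peaks at 1022, the WT lines stay at or under 15.8 and the WT_30 lines lie between up to 480 s; for MRK1 the prp2-1 and WT_30 lines cross. A zero on the log axis is not drawn.

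The 18 prp2-1 columns without a certain library also held large shares of the 4 genes. USV1 ran there from 65.6 to 1100 with a median of 403, and 18 of 18 columns lay above the highest of the 30 WT libraries (15.8). RRT8 ran from 20.6 to 206, again with 18 of 18 above, while MRK1 (1.02 to 16.8) and PAL2 (17.5 to 340) were above in 17 of 18 each. By the sample list these columns include the unlabelled 0 s library of prp2-1 course 3. They belong to the same contrast and are given without a test. No such count of columns over all targets is given here. In the course that could be followed, 62.7% of all targets lay above all 3 WT courses, and 91% of those outside ribosomal protein genes. The counts of columns therefore do not set the 4 genes apart.

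At 0 s, before any label was taken up, USV1 had 12 and 43 reads in the prp2-1 libraries, or 37.8 and 115 per 100000. The WT libraries at 0 s held 46, 76 and 42 USV1 reads, or 11.4, 6.48 and 3.95 per 100000. The higher share of USV1 in prp2-1 was thus also present in RNA that came through the pull-down without label, on few reads. PAL2 had 1 and 6 reads in prp2-1, or 3.15 and 15.99 per 100000, against 14, 56 and 15 reads in WT, or 3.46, 4.77 and 1.41 per 100000. MRK1 had 5 and 0 reads in prp2-1 and RRT8 1 and 4, too few to place. In the prp2-1 course the level of MRK1 per spike-in read at 0 s was 273% of that at 150 s, on 5 and 8 reads. With the 0 s reads taken off after scaling to spike-in reads, the log2 changes of edgeR's fit on the TMM scale (given below) were 5.90 for USV1, 3.86 for RRT8, 3.58 for MRK1 and 2.54 for PAL2.

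Relative to spike-in RNA the picture was another. Target reads as a whole were 23.8 to 68.1 times more abundant per spike-in read in WT than in prp2-1, and the median target had a log2 ratio of -4.11. The change of scale moves every target by the same amount, so the order of the targets is the one used in choosing the genes. USV1, first in it, was the single target above 0, at 1.53. RRT8 lay at -0.51, MRK1 at -0.66 and PAL2 at -1.82, so these 3 genes had fewer reads per spike-in read in prp2-1 than in WT. Whether cells or total RNA entered in equal amounts in both series is known only as far as the labels say, which is a fixed quantity of total RNA and of spike-in per sample. Fewer labelled cells and less labelled RNA per cell cannot be told apart in such bulk cultures.

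By time, USV1 had 20.8 reads per 1000 spike-in reads at 150 s in prp2-1, against 29.9 ± 3.6 in WT (SD, n = 3). At 538 s it had 955 in prp2-1, against 199 ± 115 in WT at the matched time. USV1 was below all WT courses at 1 of 7 times, the first, and above all of them at 4, from 390 s on. PAL2 was below all WT courses at 7 of 7 times, RRT8 at 6 and MRK1 at 5. No such count by time over all targets is given here. In the summed times the median target was at a log2 ratio of -4.11, so each of these genes was lowered less than the median. At 990 s RRT8 had 206 reads per 1000 spike-in reads in prp2-1 against 405 ± 51 in WT, and PAL2 had 254 against 966 ± 313.

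**Figure D3:**
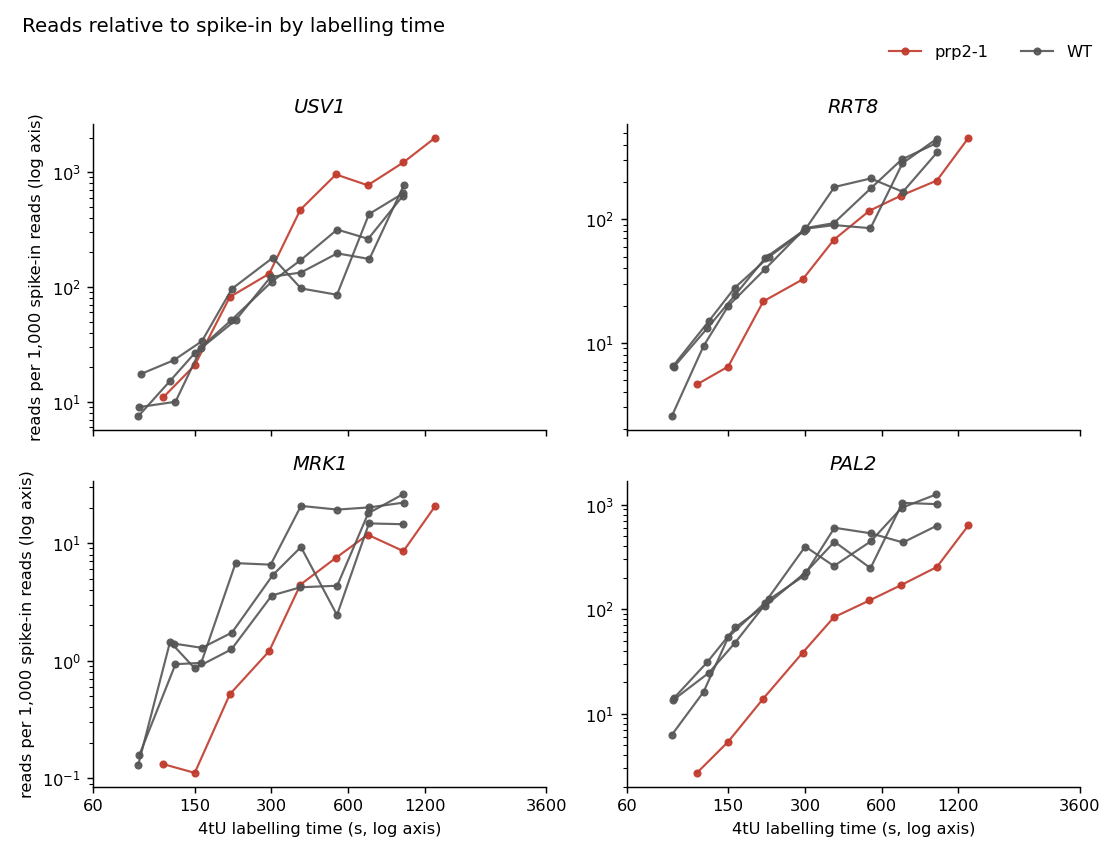
Reads per 1000 spike-in reads (y, log axis) against labelling time in seconds (x, log axis) for prp2-1 (1 course) and WT (3 courses). The prp2-1 line crosses above the WT lines from 390 s on for USV1 and stays under them at all matched times for PAL2.

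With both scales in view, edgeR's fit over all 292 targets in prp2-1 and WT called 108 higher (37%) and 89 lower (30.5%) in prp2-1, 67.5% in all, with a median log2 change of 0.14. Without TMM factors the split was 133 higher and 52 lower, with a median of 0.61, and scaled to spike-in reads it was 1 higher and 284 lower, with a median of -4.15. On the TMM scale USV1 had a log2 change of 5.80, RRT8 3.78, MRK1 3.56 and PAL2 2.47. The fit had 1 prp2-1 course, so its calls hold no spread between prp2-1 courses.

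Of 14 other targeted genes on a list tied to stress and nutrients, 12 had larger shares in prp2-1 in that fit and 0 smaller ones, with a median log2 change of 1.37. The list holds no ribosomal protein gene. Of the 188 targets outside the ribosomal protein genes 108 (57.4%) were called higher, with a median of 0.72, and of the 104 ribosomal protein targets 0 were. HAC1 led with 3.14 ± 0.42 (SE), followed by the cell wall protein gene ECM33 with 2.69 ± 0.56. The smallest called changes were those of UBC4, a ubiquitin-conjugating enzyme gene (0.69 ± 0.15), and GLC7, the catalytic subunit gene of protein phosphatase 1 (0.89 ± 0.26). PSP2 (0.48) and GCR1 (-0.014) were not called. These values rest on 1 prp2-1 course, so the SE holds no spread between prp2-1 courses. None of the 14 exceeded the change of USV1, RRT8 or MRK1, but HAC1 and ECM33 exceeded that of PAL2 (2.47). Relative to spike-in reads all 14 were under 0, as was each target but USV1.

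The unspliced share is the percentage of a gene's reads that still hold the intron. USV1 had 3.32% unspliced reads in prp2-1 (3060 of 92044, 95% Wilson interval 3.21 to 3.44), against 7.63%, 7.42% and 6.85% in the WT courses. MRK1 had 10.1% in prp2-1 (interval 8.24 to 12.3), against 21.9%, 28.7% and 14.8% in WT. For both genes the prp2-1 course lay under every WT course in these sums, as it did for 211 of 286 targets (73.8%). The sums weight each time by its reads. For both genes early times (150 to 300 s) held a smaller part of the reads in prp2-1 than in WT. Early MRK1 was at 22.3% in prp2-1, inside the WT values of 34.7%, 40.9% and 20.7%, on 103 reads against 22 to 58. From 540 to 990 s MRK1 was at 7.58%, under 13.0%, 23.4% and 12.1% in WT. USV1 lay under every WT course in both windows. The effect of these weights on the 73.8% was not tested. Such intervals cover counting error only.

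RRT8 had 19.5% unspliced reads in prp2-1, inside the WT values of 16.9%, 22.7% and 27.8%. PAL2 had 5.63% in prp2-1, above the WT values of 5.10%, 4.87% and 4.70%, a place shared by 35 of 286 targets (12.2%). In log2 odds, prp2-1 minus WT, USV1 was at -1.20, MRK1 at -1.28, RRT8 at -0.23 and PAL2 at 0.21, beside a median of -0.62 over 286 targets. These values rest on the same sums, with the same weights of times. In these sums USV1 thus had a larger labelled share with a smaller unspliced part. In the same sums PAL2 had a larger labelled share with an unspliced part above that of every WT course. PAL2 also lay above every WT course in the early and late windows given for MRK1. Early PAL2 was at 9.14% in prp2-1, against 7.54%, 8.50% and 7.54% in WT. Late PAL2 was at 4.50% in prp2-1, against 3.54%, 3.20% and 4.47% in WT. The difference was not tested. In the 18 columns without a certain library the summed unspliced shares were 4.18% for USV1, 26.1% for RRT8, 6.84% for MRK1 and 3.71% for PAL2. These columns cover all labelling times and, by the sample list, the 0 s library of course 3. Their sums are therefore not set against the sums from 150 to 990 s.

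In time the unspliced share of PAL2 in prp2-1 was 33.0% in the first library (113 s), 10.3% in the next (150 s), and 7.84%, 3.77% and 2.59% after 294, 717 and 1317 s. That of RRT8 in prp2-1 was 41.4%, 27.6%, 13.6% and 17.6% after 113, 294, 717 and 1317 s. USV1 was at 10.4% and 16.3% at the first times in prp2-1 and at 1.86% at 538 s. In prp2-1 as in WT, the early libraries thus held the largest unspliced shares for these 3 genes.

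**Figure D4:**
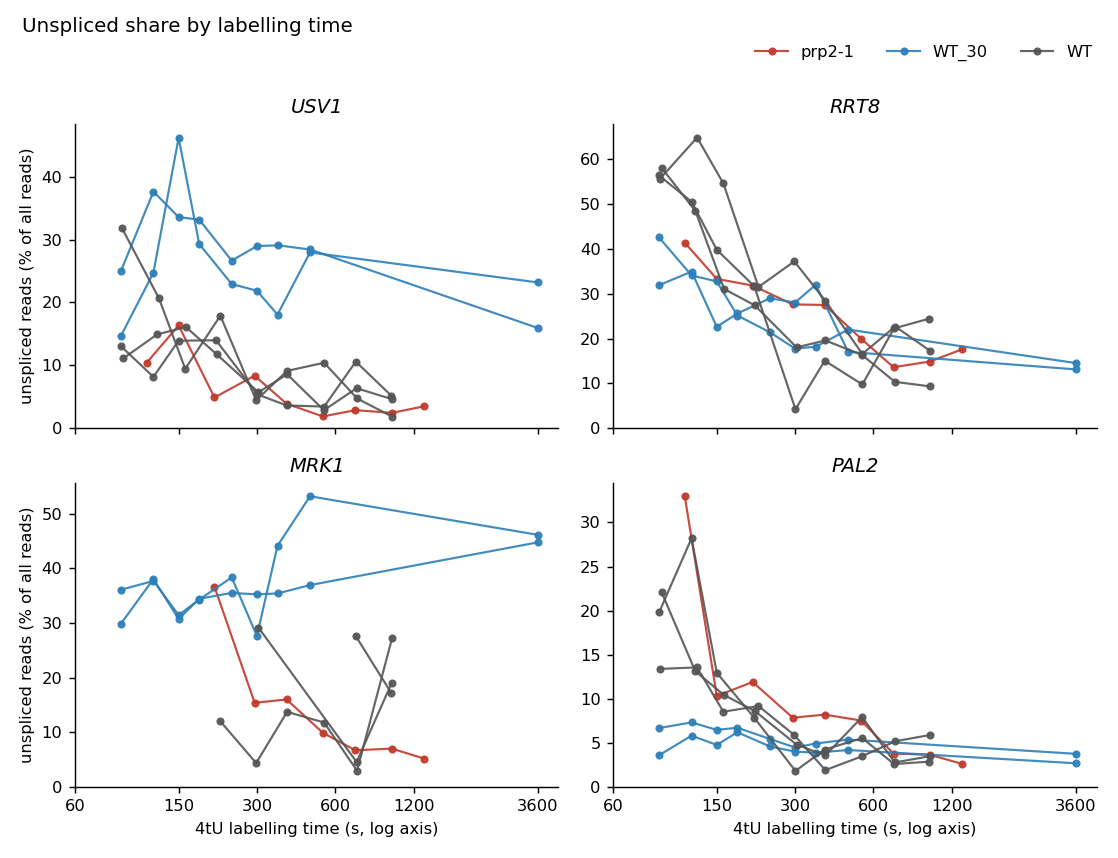
Unspliced reads in percent of all reads of the gene (y) against labelling time in seconds (x, log axis), for libraries with at least 20 reads of that gene, with 1 line per course of prp2-1, WT_30 and WT. The lines of RRT8 start high in every group, and those of USV1 in WT_30 stay above 14% while those of prp2-1 end under 4%.

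Some unspliced reads come from the lariat intermediate, in which the first step is done and the second is not. RRT8 had 14.5% lariat reads among its unspliced reads in prp2-1 (460 of 3179), against 29.7%, 36.5% and 42.5% in WT. The lariat share lay in prp2-1 under all 3 WT courses for 130 of 261 targets (49.8%). In the 18 columns without a certain library RRT8 had 17.1% (2395 of 13997, interval 16.5 to 17.7), with 4.75% to 42.2% in the 17 columns of at least 20 unspliced reads. Of these columns 6 reached the lowest WT course or more, so RRT8 was not low in all of them. In column order a first run lay at 4.75% to 15.3% and each later column at 22.0% or more. The summed 17.1% thus mixes unlike columns. For PAL2 the values were 53.9% in prp2-1 (544 of 1010) and 45.1%, 50.7% and 33.7% in WT. In USV1 such reads were rare everywhere, with 31 of 3060 in prp2-1 and 2 of 274, 1 of 218 and 2 of 194 in WT. MRK1 had 18 of 87 in prp2-1 and 3 of 23, 0 of 29 and 1 of 32 in WT. Of 29 unspliced reads without a lariat read, a share of up to 11.7% is allowed by the Wilson interval.

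Within WT, a question the choice of genes did not touch is how each gene changed between late (540, 720 and 990 s) and early labelling (150, 210 and 300 s). PAL2 had 21.0, 19.9 and 18.1 reads per 100000 late and 17.9, 15.6 and 11.5 early, higher late in 3 of 3 courses. Its log2 change was 0.43 ± 0.18 (SE, edgeR adjusted p = 0.136), and with the course as a block, which pairs late and early libraries of a course, 0.45 (edgeR adjusted p = 0.0205). RRT8 was also higher late in 3 of 3 courses, with 7.46, 6.78 and 7.83 late against 7.02, 5.10 and 5.16 early (0.39 ± 0.20, edgeR adjusted p = 0.196). USV1 (0.24, edgeR adjusted p = 0.565) and MRK1 (0.54, edgeR adjusted p = 0.408) were higher late in 2 of 3 courses each. None of the 4 genes passed without the block, where 24 of 288 targets (8.33%) did. With it 136 passed, 63 of them higher late (21.9%).

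The unspliced share fell with time in WT for the 3 genes with enough reads. RRT8 had 10.3%, 20.5% and 18.2% unspliced reads late, against 24.7%, 31.6% and 42.5% early, a change in log2 odds of -1.34 ± 0.35 (edgeR adjusted p = 0.00222). PAL2 had 3.54%, 3.20% and 4.47% late, against 7.54%, 8.50% and 7.54% early (-1.15 ± 0.22, edgeR adjusted p = 0.000223). USV1 had 5.17%, 6.17% and 5.20% late, against 9.92%, 12.9% and 8.86% early (-1.001 ± 0.24, edgeR adjusted p = 0.00146).

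Late lay under early without overlap for each of these 3 genes, as for 245 of 275 targets (89.1%). Of the 275 tested 250 (90.9%) were called lower late, 92.4% in all, and the median was -1.52. Relative to the typical target the late values were higher, by 0.51 for USV1, 0.37 for PAL2 and 0.17 for RRT8, none past the threshold. MRK1 had 6 to 15 unspliced reads late and 9 to 17 early per course, too few for the test.

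For the lariat share of unspliced reads in WT neither RRT8 nor PAL2 passed. RRT8 had 25.4%, 41.3% and 43.6% late and 30.9%, 33.0% and 41.9% early (0.11 ± 0.39, edgeR adjusted p = 0.864). PAL2 had 43.2%, 46.0% and 33.9% late and 49.5%, 57.2% and 37.8% early (-0.43 ± 0.39, edgeR adjusted p = 0.566), lower late in 3 of 3 courses. In that edgeR fit 0 of 248 targets (0%) passed, 39 had an unadjusted p under 0.05, and DESeq2 called 3. With the course as a block 44 of 248 were called, but neither RRT8 (0.10, edgeR adjusted p = 0.825) nor PAL2 (-0.42, edgeR adjusted p = 0.419).

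WT_30 was not used to choose the genes, although the WT courses it is set against were. All 4 genes had larger shares in WT_30 than in WT over 90, 120, 150 and 300 s, in a comparison in which 111 of 293 targets (37.9%) were called higher and 97 (33.1%) lower, 71% in all. Without TMM factors that split was 146 and 70, and the median target moved to 0.53 in log2, where it was 0.10 with them. Series, spike-in material and sequencing depth differ together here and cannot be told apart.

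MRK1 differed most of the 4, at rank 6 of the 293 targets, with 3.46 and 3.75 reads per 100000 in WT_30 against 0.428, 0.314 and 0.279 in WT. Its log2 change was 3.00 ± 0.30 (SE, edgeR adjusted p = 1.47e-06), on 29 to 50 reads per WT course. USV1 had 36.7 and 37.4 in WT_30 against 12.9, 7.19 and 5.88 in WT (1.71 ± 0.24, edgeR adjusted p = 3.01e-05). RRT8 had 22.1 and 28.0 in WT_30 against 6.90, 4.68 and 5.13 in WT (1.75 ± 0.21, edgeR adjusted p = 5.54e-06). PAL2 had 40.0 and 38.7 in WT_30 against 18.3, 13.1 and 10.3 in WT (1.10 ± 0.20, edgeR adjusted p = 0.000305).

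Both WT_30 courses lay above all WT courses for each of the 4, as for 160 of 293 targets (54.6%). The order differed from that of prp2-1, where USV1 led and stood far above the others. Of the 14 stress and nutrient genes 6 were called higher and 3 lower in WT_30, with PSP2 (3.12 ± 0.19, edgeR adjusted p = 3.20e-08) and ECM33 (3.00 ± 0.35, edgeR adjusted p = 5.59e-06) at the top. At the bottom were PHO85 (-0.90 ± 0.21, edgeR adjusted p = 0.00187) and COX5B (-0.74 ± 0.22, edgeR adjusted p = 0.00894). HAC1, high in prp2-1, had a log2 change of 0.24 here (edgeR adjusted p = 0.326).

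**Figure D5:**
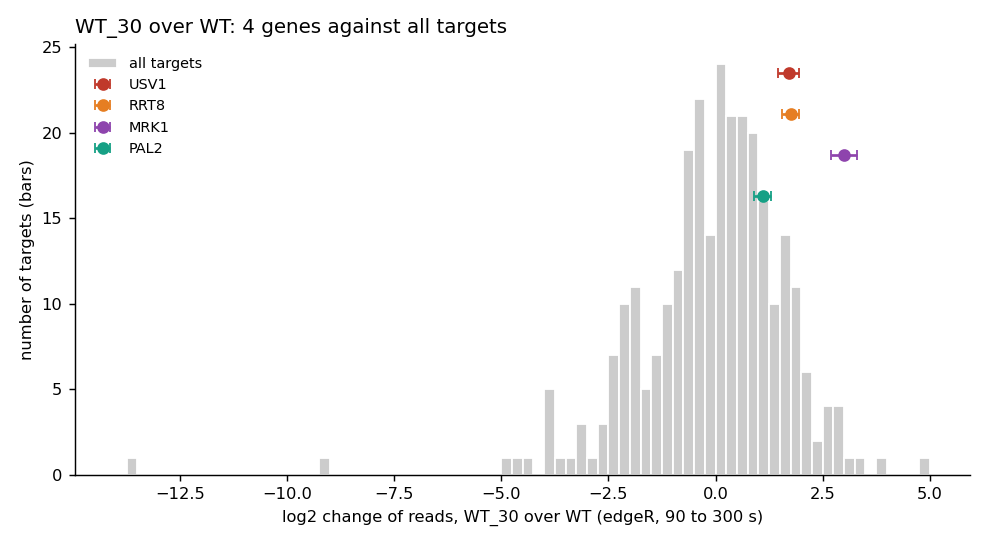
Grey bars count all 293 targets by their log2 change, WT_30 over WT (x), and coloured points with bars of 1 SE mark the 4 genes at heights chosen for legibility only. All 4 points lie right of 0, from 1.10 for PAL2 to 3.00 for MRK1.

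Reads at 0 s were a larger part of the USV1 level in WT_30 than in WT. The WT_30 libraries at 0 s held 39.9 and 35.4 USV1 reads per 100000, close to the labelled libraries. Per spike-in read these were 23.7% and 17.1% of the level at 150 s in WT_30, against 13.9%, 11.04% and 9.02% in WT. PAL2 stood further apart, with 46.1 and 29.9 reads per 100000 at 0 s in WT_30, against 3.46, 4.77 and 1.41 in WT. Its 0 s reads were 21.8% and 13.8% of the level at 150 s in WT_30, against 2.13%, 4.02% and 2.01% in WT. For RRT8 the part was 5.41% and 3.76% in WT_30 and 4.58%, 4.66% and 5.44% in WT. For MRK1 it was 21.7% and 8.25% in WT_30, against 23.8%, 26.9% and 52.7% in WT, where it rests on 3 to 8 reads at 0 s. With each course's 0 s reads taken off after scaling to spike-in reads, a choice made after the data were seen, all 4 genes were still called higher in WT_30. The log2 changes were then 3.28 for MRK1, 1.91 for RRT8, 1.62 for USV1 and 0.90 for PAL2 (edgeR adjusted p = 0.00284 for PAL2, the highest of the 4).

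USV1 also kept more of its RNA unspliced in WT_30, with 26.1% and 30.8% against 9.86%, 11.3% and 12.6% in WT (log2 odds 1.65 ± 0.29, edgeR adjusted p = 6.79e-05). PAL2 went the other way, with 4.44% and 5.82% in WT_30 against 8.50%, 12.4% and 9.14% in WT (-1.03 ± 0.30, edgeR adjusted p = 0.00562). That call was lost without the first WT_30 course (-0.83, edgeR adjusted p = 0.120). Less the 0 s reads, USV1 was at 2.06 (edgeR adjusted p = 6.53e-08) and PAL2 at -0.89 (edgeR adjusted p = 0.0215). Among 284 targets 187 (65.8%) were called, 37.7% higher and 28.2% lower.

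RRT8 (-0.71, edgeR adjusted p = 0.0838) did not pass this test, with 28.6% and 27.9% in WT_30 against 28.6%, 37.7% and 52.0% in WT. Without the first WT course it did (-1.06, edgeR adjusted p = 0.0200). MRK1 had 34.5% and 32.2% in WT_30 against 32.7%, 37.9% and 26.0% in WT (0.12, edgeR adjusted p = 0.783). The USV1 share in WT_30 was highest at 150 s in course 1 (46.2%) and at 120 s in course 2 (37.6%), and was 14.7% and 24.97% at 90 s.

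Within WT_30, late (300, 360 and 480 s) was set against early labelling (90, 120 and 150 s). RRT8 had 30.7 and 36.4 reads per 100000 late and 19.8 and 20.9 early, a log2 change of 0.62 ± 0.21 (SE, edgeR adjusted p = 0.0814). MRK1 had 5.05 and 5.04 late and 2.94 and 3.07 early (0.65 ± 0.22, edgeR adjusted p = 0.0914). PAL2 had 52.8 and 49.2 late and 35.9 and 31.2 early (0.51 ± 0.21, edgeR adjusted p = 0.135).

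These 3 genes were higher late in 2 of 2 courses, and they passed once the course was a block: RRT8 at an edgeR adjusted p = 0.00796, MRK1 at 0.0101 and PAL2 at 0.0187. A block on 2 courses leaves few residual degrees of freedom, so these p-values lean on the spread estimated over all targets. With the block 109 of 289 targets were called, 53 of them higher (18.3%), and without it 11 (3.81%). USV1 moved apart in the 2 courses, with 46.7 late and 35.1 early in the first and 31.5 late and 37.3 early in the second (0.02 ± 0.23, edgeR adjusted p = 0.95).

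Unspliced RRT8 fell in WT_30 too, to 23.8% and 18.7% late against 28.99% and 37.0% early (-0.87 ± 0.24, edgeR adjusted p = 0.0165), as did 185 of 282 targets (65.6%). USV1 (-0.29, edgeR adjusted p = 0.227), PAL2 (-0.39, edgeR adjusted p = 0.162) and MRK1 (0.19, edgeR adjusted p = 0.518) did not pass. The early window holds many reads that need no label. At 90 s PAL2 had 8.93 and 14.9 reads per 1000 spike-in reads, against 5.83 and 7.49 at 0 s. USV1 had 8.77 and 19.7 against 5.05 and 8.87. Unspliced shares at 0 s were 2.97% and 2.84% for PAL2 and 8.55% and 8.19% for USV1. Late against early without the 0 s reads was not tested in WT_30. MRK1 was at rank 3 from the top among the 282 targets, with 36.0% and 39.6% unspliced late against 34.0% and 35.6% early. Lariat reads of WT_30 were not analysed here.

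After an hour of labelling, at 3600 s, USV1 had 8.70 and 8.63 reads per 100000 in WT_30, under every earlier labelled library of that series (25.4 to 54.9). PAL2 had 8.71 and 12.8 and RRT8 11.8 and 10.6, while MRK1, with 2.57 and 3.99, stayed among its earlier values. MRK1 then had the largest unspliced shares of the 4, with 44.8% and 46.2%, against 23.2% and 15.9% for USV1, 13.1% and 14.5% for RRT8 and 2.67% and 3.74% for PAL2. This time has no counterpart in prp2-1 or WT.

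Within the 27 labelled WT libraries Pearson's r of the log2 shares was 0.77 for RRT8 and PAL2, but 0.03 for USV1 and MRK1, 0.17 for USV1 and PAL2 and 0.31 for USV1 and RRT8. Within the 18 WT_30 libraries USV1 and PAL2 had r = 0.89, and within the 9 prp2-1 libraries the 6 pairs lay between 0.73 and 0.84. Over all 54 labelled libraries r ran from 0.72 (USV1 and MRK1) to 0.95 (USV1 and RRT8), but genes chosen as high in prp2-1 and low in WT have a high r across these groups by that choice. The libraries also share strains and courses.

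Targets most like the mean pattern of the 4 genes, of 280 compared over these 54 libraries, were AIM11 (r = 0.94), COI1 (0.93), CNB1 (0.93), COX4 (0.91) and YSC84 (0.91). CNB1 encodes the regulatory subunit of calcineurin, COX4 a subunit of cytochrome c oxidase and YSC84 an actin-binding protein. The median r of all 280 was 0.38, and the differences between groups that chose the 4 genes enter each of these values. YSC84 had median shares of 120 in prp2-1, 34.6 in WT_30 and 14.7 in WT, and AIM11 of 64.1, 30.5 and 14.8. Both were thus highest in prp2-1 and lowest in WT, as were all 4 genes by their medians.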

How the data were processed

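The submitters' processing notes name the aligner STAR 2.7.2b, as run by the authors, and the genome build R64; how reads were assigned to introns is not given in the sources used here. Whole-number counts of all, unspliced and lariat reads per target, without scaling, were taken from 10 of 23 deposited tables, per the file headers; the others were not used here. Unspliced reads are part of all reads. Of the 29 prp2-1 columns 11 have a certain sample; the other 18, which belong to courses 2 and 3, lack one because column and title numbers disagree, so the comparison planned with 3 prp2-1 courses had 1, whose spread is taken to equal that of the WT courses.

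The members and lists were chosen with earlier results of these data known. Counts were summed per course and window, and the course was the replicate; nothing in the labels says that courses were grown apart, so a p-value reflects course-to-course spread, which may be technical. edgeR 4.0.16 (quasi-likelihood, TMM for all reads, none for shares, which were tested as the interaction of window or group with read state) was the main test, with Benjamini-Hochberg adjustment over all targets at 0.05, and DESeq2 1.42.0 an alternative. Filters were a mean of 20 reads, 20 unspliced and 100 total for shares, and 20 unspliced and 5 lariat for lariat shares. The fits were tested on simulated data. A course's late and early windows share that course, as labelled, and deviated together (r of 0.661, 0.630 and 0.747 in WT and 0.385 in WT_30), so the course is a pair there. The 2 WT_30 courses mirror each other around their mean, so they give 1 value of r between them. Correlations used a pseudocount of 0.5 reads. Named were the 4 genes, the 2 highest and 2 lowest called list targets, the 5 targets most alike and the neighbours in the order; OM14 and HAC1 among the targets in the order, HAC1 in WT_30 and the stress element were chosen after the values were seen. Reads carry no molecular identifiers. Replicate libraries differed by 36.1 to 2836 in chi-squared per degree of freedom over 40 pairs, so none was a duplicate.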

Additional observations from a re-analysis of the deposited data

Results flagged for a closer look

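MRK1 had late minus early values of opposite sign in the 2 wild-type series. Its unspliced share was higher late than early in both WT_30 courses, at 0.13 and 0.25 in log2 odds, and lower late than early in all 3 WT courses, at -1.75, -1.17 and -0.91. The change within WT_30 did not pass its own test (0.19 ± 0.24, SE, edgeR adjusted p = 0.518). The mean late minus early change in WT_30 less that in WT was 1.46. The difference was not tested, the time windows differ between the series, and the WT values rest on 6 to 17 unspliced reads per course and window, against 191 to 442 in WT_30.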

How the results depend on the processing

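Scaling decided most. Per spike-in read, prp2-1 over WT turned negative for RRT8 (-0.51), MRK1 (-0.76) and PAL2 (-1.82) in edgeR fits on summed reads, where the mean of the course ratios in the report is -0.66 for MRK1, and late over early was called higher for 288 targets in WT and 243 in WT_30. Setting the typical target to 0 (TMM per column) turned the unspliced change in WT to 0.51 for USV1, 0.17 for RRT8 and 0.37 for PAL2, with 51 targets called. Outside the ribosomal protein genes 75 targets were called between prp2-1 and WT, 48 between late and early in WT and 130 between WT_30 and WT, and USV1 in WT_30 was at -0.094 late against early.

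Late against early in WT gave 68 calls with DESeq2, 136 with the replicate block and 0 to 56 when each course was left out, against 24; the cause was not tested. In WT_30 it gave 42 with DESeq2, 4 without the filter, 4 with the minimum raised, 47 without TMM and 109 with the block, where USV1 was at -0.0105, against 11. Lariat shares in WT gave 3 calls with DESeq2, 1 with the minimum raised and 44 with the block; RRT8 ranged from -0.11 to 0.29 when each WT course was left out (-0.11 without WT replicate 2). MRK1's unspliced share in WT_30 against WT ranged from -0.10 (without WT replicate 3) to 0.27 when a course was left out and was -0.0925 with the replicate block. There the numbers do not pair courses (r of -0.05 and -0.06), and the block called 198 targets in all reads, against 208, and 185 in unspliced share, against 187. The block changed no call of the 4 genes beyond those named. Leaving out a WT_30 course within WT_30 leaves no residual degrees of freedom and was not run. The depth of MRK1 in WT limits each of its shares.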
